A study of Mus musculus with 2 samples.

Results

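Set G fibroblasts are stromal cells of the mouse intestinal lamina propria that carried *Grem1* and *Ackr4* together with other genes described for trophocytes, and 998 of the 5948 *Pdgfra*-positive fibroblasts in 2 scRNA-seq libraries belonged to them. They were chosen by expression. A cell had at least 3000 UMIs (unique molecular identifiers, which count RNA molecules), at most 20% mitochondrial UMIs, at least 1 UMI of *Pdgfra*, a receptor that marks gut fibroblasts, and none of *Ptprc*, *Epcam* or *Pecam1*, which mark leukocytes, epithelium and endothelium. Genes with at least 1 UMI were then counted in 4 sets of 6 genes. A member had at least 3 of set G (*Grem1*, *Stc2*, *Ackr4*, *Col8a1*, *Gdf6* and *Serpina3n*) and fewer of each other set. The other sets were set P (*Pi16*, *Has1*, *Mfap5*, *Cd248*, *Pcolce2* and *Emilin2*), set L (*Lpl*, *Penk*, *Plau*, *Alkal2*, *Col6a6* and *Dpep1*) and set A (*Adamdec1*, *Ereg*, *Fgfr2*, *Col6a5*, *Lrat* and *Scube1*), and the cells that met the same rule for them are the groups that set G fibroblasts are set beside. The *Pdgfra*-positive cells that met the rule of no set, 523 in ApcMin and 519 in VApcMinL, are called the remaining cells, and they include 126 and 151 cells in which set G tied with another set.

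The cells came from C57BL/6 mice whose age the labels give as 11 weeks. The ApcMin library is from ApcMin/+ mice with intact *Lef1*, and the VApcMinL library is from ApcMin/+ mice with both *Lef1* alleles floxed and Villin-Cre, which is active in the gut epithelium. Both groups thus carry ApcMin/+, the germline *Apc* mutation that gives intestinal adenomas, and no group without it was analysed here. Tissue was digested after removal of the epithelium, and DAPI-negative cells lacking Ter119, Epcam and CD45 were sorted. How many mice were pooled for a library is not given in the sources used here. The libraries held 6599 and 6569 cells by these UMI and mitochondrial limits, 2994 and 2954 of them *Pdgfra*-positive, and 481 ApcMin and 517 VApcMinL cells were members. Each genotype is 1 library with no replicate, so no p-value is given, and every interval below is a 95% interval that covers counting error only. The deletion is in cells that the sort removed, so *Lef1* in these fibroblasts does not check the labels. It had 1 UMI in ApcMin members and 0 in VApcMinL members, where the interval reaches 0.598 CPM (UMIs of a gene per 1000000 UMIs summed over a group).

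Trophocytes are fibroblasts with low *Pdgfra* that lie beneath the crypts of the small intestine. They are known for secreting Gremlin 1, which binds bone morphogenetic proteins (BMPs) and keeps them from their receptors, and R-spondin 3, which strengthens the response to Wnt ligands, and both signals favour the stem cells of the crypt base. *Ackr4* is an atypical chemokine receptor that takes up and degrades CCL19 and CCL21 rather than signalling through G proteins.

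The promoter windows of 3 genes are shown because *Grem1* and *Ackr4* name the population. *Chodl* led the genes outside the rule when members were set against sets P, L and A. Each window runs from 250 bases before to 50 after the annotated start in RefSeq on GRCm38.p6, and 5 of the 6 set G genes and 19 of the 25 leading genes described further on have such a window. Capitals mark matches on either strand to the TATA box TATAAA, the AP-1 site TGANTCA, the E-box CANNTG or the GC box GGGCGG, which stand in 13.6%, 7.81%, 72.3% and 35.7% of 32851 windows. The *Grem1* window, chr2:113758599-113758898 on the minus strand, holds 3 GC boxes that begin at -173, -131 and -107 and has 70.7% G and C, against a median of 52.7% over all windows. The *Ackr4* window, chr9:104126594-104126893 on the minus strand, holds 1 TATA box at -185 and has 48.7% G and C. This window lies wholly within the GENCODE vM21 span of the gene given further on, where the start lies further upstream. The *Chodl* window, chr16:78930698-78930997 on the plus strand, holds 4 E-boxes at -222, -198, -107 and -98. No AP-1 match lies in the 3 windows, and the matches describe letters and not bound sites.
Grem1: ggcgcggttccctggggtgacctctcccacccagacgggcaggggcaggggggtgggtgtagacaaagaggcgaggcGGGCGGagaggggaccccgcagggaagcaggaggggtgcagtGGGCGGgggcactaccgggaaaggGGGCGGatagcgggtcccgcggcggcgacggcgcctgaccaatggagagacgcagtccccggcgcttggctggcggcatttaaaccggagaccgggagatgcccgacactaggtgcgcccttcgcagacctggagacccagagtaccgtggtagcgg
Ackr4: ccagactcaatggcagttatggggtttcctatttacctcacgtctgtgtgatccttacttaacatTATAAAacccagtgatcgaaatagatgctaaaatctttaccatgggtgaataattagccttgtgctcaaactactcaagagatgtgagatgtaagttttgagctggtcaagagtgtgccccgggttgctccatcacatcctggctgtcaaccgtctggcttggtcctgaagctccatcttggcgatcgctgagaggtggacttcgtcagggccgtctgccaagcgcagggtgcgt
Chodl: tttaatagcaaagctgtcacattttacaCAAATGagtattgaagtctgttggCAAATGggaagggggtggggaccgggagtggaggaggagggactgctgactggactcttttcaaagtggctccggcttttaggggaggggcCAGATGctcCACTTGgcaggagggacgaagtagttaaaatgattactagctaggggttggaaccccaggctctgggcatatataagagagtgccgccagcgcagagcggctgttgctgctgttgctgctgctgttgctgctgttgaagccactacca

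Set G fibroblasts made up similar parts of the fibroblasts in the libraries. They were 16.1% (14.8 to 17.4) of the *Pdgfra*-positive cells in ApcMin and 17.5% (16.1 to 18.9) in VApcMinL, a VApcMinL to ApcMin ratio of 1.09 (0.960 to 1.24). Of all cells they were 7.29% and 7.87%, with a ratio of 1.08 (0.952 to 1.23). The groups of the other 3 sets differed more between the libraries, and the remaining cells less, with a ratio of 1.01 (0.889 to 1.14). Set P cells were 25.3% and 12.4%, set L cells 28.6% and 23.8%, and set A cells 12.6% and 28.7% of the *Pdgfra*-positive cells, and the bar plot of shares shows the set G bars as the pair whose intervals overlap among the 4 sets. The shares depended on the rule. Without *Grem1* in set G, members were 11.0% and 12.7%, and with detection after thinning every cell to 3000 UMIs the ratio was 1.17 (1.03 to 1.34). Members had a median of 14171 UMIs and 3726 genes in ApcMin and 12077 UMIs and 3310 genes in VApcMinL, with 3.11% and 3.14% mitochondrial UMIs.

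**Figure D1:**
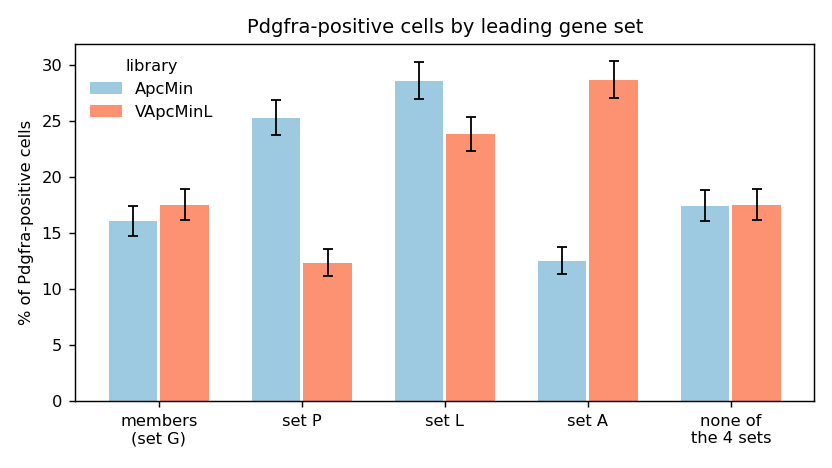
Bars give the percentage of *Pdgfra*-positive cells whose leading gene set was G (members), P, L or A, or none of the 4, in the ApcMin (blue) and VApcMinL (red) libraries, with exact 95% intervals of counting error. Members were 16.1% and 17.5%, while set P cells were 25.3% and 12.4% and set A cells 12.6% and 28.7%.

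The 6 genes of the rule chose the members, so their levels are a description. Most members carried 5 or 6 of them. In ApcMin 213 members had all 6, 162 had 5, 76 had 4 and 30 had 3, and in VApcMinL 181, 214, 91 and 31 did. Set G led the next set by 1 gene in 148 and 142 members and by 3 or more in 185 and 197. Another 613 and 529 *Pdgfra*-positive cells had at least 3 set G genes and were left out, 126 and 151 of them because another set tied and 487 and 378 because another set was ahead. Just below the minimum, 20 and 16 cells had 2 set G genes and fewer of each other set. Around the boundary the levels were graded. *Grem1* was 2148 CPM in ApcMin and 2003 in VApcMinL in members that led by 1 gene, 3061 and 3085 in those that led by 3 or more, and 1456 and 1613 in the tied cells outside. *Gdf6* was 48.4 and 50.6, 143 and 159, and 16.7 and 25.95 CPM in the same cells, so the tied cells outside carried both genes at lower levels.

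*Grem1* (ENSMUSG00000074934, chromosome 2, 113746164 to 113758646 in GENCODE vM21 on GRCm38) was 2693 CPM (2655 to 2732) in ApcMin members and 2712 (2671 to 2754) in VApcMinL members. In set A fibroblasts it was 605 and 450 CPM, in set P 76.1 and 157 and in set L 19.6 and 68.3, so set A was next among the sets in both libraries. In the remaining cells it was 444 and 624 CPM. Members held 59.9% of all *Grem1* UMIs of the ApcMin cells and 47.9% of those of the VApcMinL cells, while they held 8.94% and 8.16% of all UMIs. *Grem1* was found in 470 and 511 members, with a median of 23.9 and 24.1 UMIs per 10000 in a cell and the highest at 112 and 107. *Grem1* alone therefore did not separate these cells from set A or from the remaining cells.

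*Ackr4* (ENSMUSG00000079355, chromosome 9, 104084157 to 104126933) was 597 CPM (579 to 615) and 627 (608 to 647) in members. Its order in the other sets differed from that of *Grem1*. It was 188 and 237 CPM in set P, 77.8 and 84.9 in set L and 31.9 and 16.3 in set A, where it was lowest, and 231 and 201 in the remaining cells. *Gdf6* (ENSMUSG00000051279, chromosome 4, 9844372 to 9862345), a ligand of the BMP family, was 94.8 CPM (87.7 to 102) and 109 (100.5 to 117) in members and between 1.25 and 3.46 CPM in sets P, L and A, and 4.60 and 10.49 in the remaining cells. Members held 73.8% and 62.0% of its UMIs among all cells, and 88.4% and 85.6% among *Pdgfra*-positive cells. Of the 6 set G genes, *Gdf6* had the largest share of its UMIs in members, although 303 and 321 members had a UMI of it.

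*Stc2*, a secreted stanniocalcin, was 413 and 316 CPM in members and next highest among the sets in set A at 125 and 80.1. *Col8a1*, a chain of a short collagen, was 227 and 215 CPM in members and next highest among the sets in set P at 128 and 146. *Serpina3n*, a serine protease inhibitor, was 736 CPM (716 to 757) in ApcMin and 1337 (1308 to 1366) in VApcMinL members, a ratio of 1.82 (1.75 to 1.88). It was also higher in VApcMinL in set P (146 and 456), set L (95.5 and 173) and set A (447 and 927), so its larger value in VApcMinL was not particular to set G cells, as the plot of levels by group shows.

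**Figure D2:**
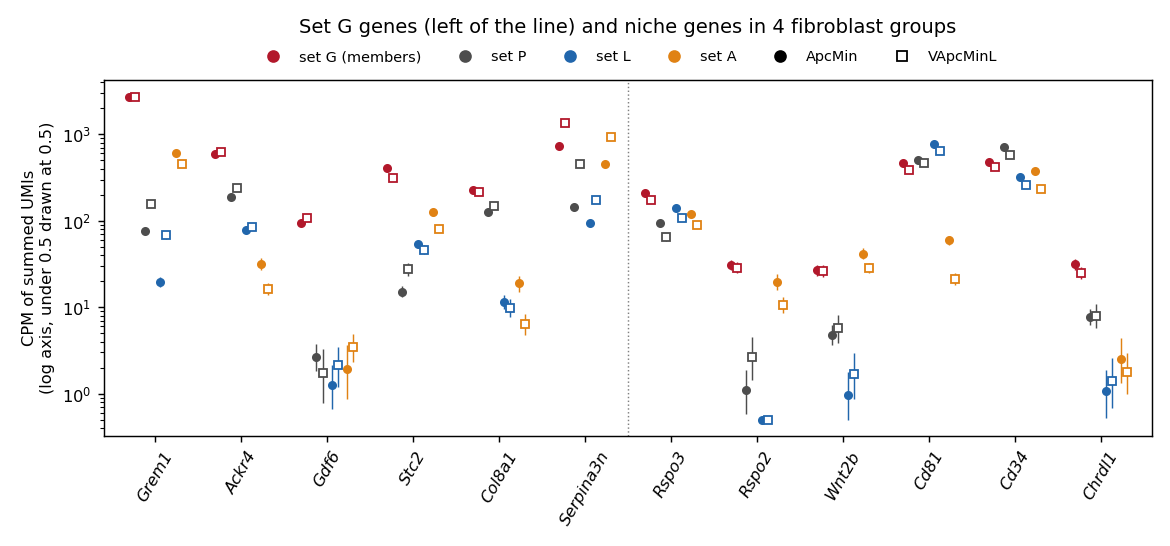
CPM of summed UMIs on a log axis for the 6 set G genes (left of the dotted line) and 6 niche genes in members (red) and in set P (grey), set L (blue) and set A (orange) fibroblasts, with ApcMin as filled circles, VApcMinL as open squares and exact Poisson intervals as bars, and levels under 0.5 CPM drawn at 0.5. *Grem1* in members was 2693 and 2712 CPM with set A next at 605 and 450, while *Cd81* was highest in set L at 764 and 648.

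Each set G gene was also measured in cells chosen by the other 5 genes of the set. Chosen without *Grem1*, 329 ApcMin and 376 VApcMinL cells had 2939 and 2933 CPM of *Grem1*, and 96.7% and 98.4% of them had a UMI of it. Chosen without *Ackr4*, 341 and 391 cells had 595 and 652 CPM of *Ackr4*, with a UMI in 92.96% and 92.8%. Chosen without *Gdf6*, 415 and 461 cells had 91.6 and 107 CPM of it, with a UMI in 57.1% and 57.5%. *Stc2* was 445 and 307 CPM, *Col8a1* 211 and 194 and *Serpina3n* 739 and 1368 in cells chosen without each. Each of the 6 genes was thus about as high in cells that it did not help to choose, and the choice still rests on the other genes of the same cells, so the values are no test.

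After thinning to 3000 UMIs per cell, *Grem1* was found in 92.7% of ApcMin and 95.4% of VApcMinL members, and in 97.7% and 98.8% without thinning. As a background for free RNA, B-type cells (*Cd79a* and *Ptprc* found, *Pdgfra* not) were used, 711 and 445 cells with medians of 5073 and 4844 UMIs. Of them 1.83% and 2.02% had *Grem1* after thinning, against 43.4% and 36.1% of set A, 7.78% and 12.8% of set P and 3.15% and 3.69% of set L fibroblasts. *Ackr4* was found in 75.1% and 73.1% of members and 0.281% and 0.449% of B-type cells. *Gdf6* was found in 22.5% and 26.9% of members and in 0 B-type cells, where the intervals reach 0.517% and 0.826%. Members were chosen by these genes, so the B-type shares serve only as the level of free RNA. Shares given further on are without thinning unless it is named. B-type cells had lower median UMIs than members, so such shares compare cells of unlike depth.

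The label trophocyte-like was checked on 4 genes outside the rule, *Cd81*, *Cd34*, *Rspo3* and *Wnt2b*. *Pdgfra*, which the rule required, was found after thinning in 74.4% of ApcMin and 72.3% of VApcMinL members. The shares were 73.5% and 76.0% in set P, 84.3% and 83.2% in set L and 73.1% and 80.5% in set A. In ApcMin members were thus not lower in *Pdgfra* than sets P and A by this share. *Rspo3* was highest in members, at 212 CPM (201 to 223) and 173 (162 to 183), against 141 and 108 in set L, 121 and 88.9 in set A and 93.9 and 64.7 in set P. *Cd81*, a tetraspanin used to sort trophocytes, was 466 and 385 CPM in members but 764 and 648 in set L and 501 and 463 in set P. It was lowest in set A, at 59.7 and 21.2 CPM. *Cd34* was 479 and 415 CPM in members and higher in set P, at 712 and 580. *Wnt2b*, a Wnt ligand, was 26.9 (23.2 to 31.0) and 26.2 (22.4 to 30.6) CPM in members and 41.6 and 28.2 in set A. All 4 genes were found in members, and of the 4 *Rspo3* alone was higher there than in sets P, L and A and in the remaining cells, where it was 108 and 81.1 CPM, so the cells are called set G fibroblasts here.

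Members were above sets P, L and A in both libraries, with intervals apart from all 3, for 220 of 6862 genes with at least 200 UMIs over the members (3.21%), and below them for 202 (2.94%). A gene is called highest or lowest in members below by this comparison. Of the 220 genes 182 were also above the remaining cells with intervals apart, and of the 202 genes 165 were also below them. Because the cells were chosen by expression, these counts serve as the background for gene lists and not as a result.

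Of 11 measured BMP antagonists, 3 were highest in set G fibroblasts. Besides *Grem1*, a gene of the rule, they included *Chrdl1*, which binds BMPs outside the cell. *Chrdl1* was 31.3 and 24.8 CPM and at most 7.81 and 7.99 in sets P, L and A, and 6.84 and 9.97 in the remaining cells. *Fstl1*, a follistatin-like protein that binds BMP and TGF-beta ligands, was instead lowest in members, at 444 and 394 CPM against 1436 and 1187 in set P. *Fst*, which binds activins, was 49.3 and 36.1 CPM in members, between 124 and 115 in set P and 1.06 and 2.38 in set A. *Nog*, a further antagonist, had 0 UMIs in ApcMin members and 1.30 CPM in VApcMinL members.

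Of 6 measured BMP and GDF ligands, only *Gdf6*, a gene of the rule that chose the members, was highest in them. *Bmp4* was 240 and 284 CPM in members and 483 and 480 in set A, so members carried a BMP ligand beside the antagonists. *Bmp5* was 2.73 and 4.05 CPM in members and 108 and 147 in set A. *Gdf10* was 84.3 and 61.4 CPM in members, below set P (198 and 347) and set L (338 and 352). Of 12 measured BMP receptors and targets, *Id2* and *Id3*, which BMP signals induce in many cells, were highest in members, although the interval of *Id2* was not apart from that of the remaining cells. *Id3* was 458 and 758 CPM in members, 365 and 438 in set P, 399 and 345 in set L and 325 and 529 in set A. The receptors *Bmpr1a* and *Bmpr2* were 131 and 107, and 165 and 180 CPM in members.

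Of 7 measured Wnt ligands and R-spondins, *Rspo2*, *Rspo3* and *Wnt9a* were highest in set G fibroblasts. *Rspo2* was 30.9 and 28.7 CPM in members, 19.8 and 10.6 in set A, 1.09 and 2.67 in set P, and 0.0963 and 0 in set L. Members held 47.0% and 39.4% of its UMIs among all cells. *Wnt9a* was 24.9 and 28.4 CPM in members and at most 13.0 and 13.7 in sets P, L and A. *Wnt5a*, a non-canonical Wnt ligand, was 91.8 and 61.6 CPM in members and higher in set P at 174 and 161. *Wnt4* was 2.01 and 3.24 CPM in members and 118 in set A in both libraries. *Wnt2b* and *Rspo2* were thus read in both members and set A, and *Wnt4* mostly in set A.

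Of 4 measured Wnt inhibitors, *Dkk2* and *Shisa3* were highest in members. *Dkk2*, a secreted antagonist that binds Wnt co-receptors, was 235 and 279 CPM, against 170 and 121 in set A and at most 41.7 and 24.9 in sets P and L. *Shisa3*, which keeps Wnt and FGF receptors from the surface, was 123 and 96.7 CPM, against 87.5 and 37.7 in set A. *Sfrp1*, which binds Wnt ligands, was 3354 and 3393 CPM in members and 4672 and 3956 in set A. R-spondins and inhibitors of Wnt ligands were therefore found in the same cell group. None of 4 measured Wnt feedback targets was highest in members, and *Axin2* was 20.1 and 16.0 CPM.

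Of the Hedgehog genes, *Ptch1* and *Foxf1* lay between their levels in set A and in sets P and L. *Ptch1*, a Hedgehog receptor induced by the pathway, was 138 and 143 CPM in members, 336 and 532 in set A, 36.5 and 66.2 in set P and 27.6 and 47.6 in set L, while the remaining cells had 87.8 and 152. *Foxf1*, a mesenchymal target of Hedgehog, was 105 and 106 CPM in members and 152 and 195 in set A. *Foxl1*, which marks telocytes, the subepithelial *Pdgfra*-high cells, was 0.144 and 0.162 CPM in members and 4.88 and 12.5 in set A. No gene of the Hedgehog list, of 8 measured, was highest or lowest in members.

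Outside the genes of the rule, 32 of 6843 genes had a members' level at least 2 times that of sets P, L and A in both libraries, after 5 CPM were added to each level, and 17 of the 32 were also at least 2 times the level of the remaining cells. Of the 25 that led, 23 were above the remaining cells in both libraries and 13 at least 2 times as high. *Chodl* (ENSMUSG00000022860, chromosome 16, 78930948 to 78951733), a membrane protein of the C-type lectin family, led against sets P, L and A. It was 385 CPM (2683 UMIs) in ApcMin and 355 (2192 UMIs) in VApcMinL members and at most 19.1 and 21.5 in sets P, L and A. The remaining cells had 161 and 184 CPM of it, and members held 54.0% and 45.1% of its UMIs among all cells. *Cldn10*, a claudin of tight junctions, was 146 and 144 CPM in members and at most 11.9 and 19.2 in the sets, and 22.9 and 41.1 in the remaining cells. *Cpz*, a carboxypeptidase with a Wnt-binding domain, was 65.4 and 97.0 CPM and at most 9.34 and 13.3 in the sets, and 7.81 and 23.96 in the remaining cells. *Chodl* and *Cldn10* were about as high in each library, and *Cpz* was higher in VApcMinL with a ratio of 1.48 (1.31 to 1.68).

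The 25 leading genes also held receptors and adhesion proteins. *Ntrk3*, the receptor of neurotrophin 3, was 44.0 and 46.8 CPM in members and at most 4.95 and 3.54 in the other sets, and 20.2 and 23.96 in the remaining cells. *Piezo2*, a mechanically gated ion channel of touch neurons, was 144 and 175 CPM and at most 23.5 and 43.4 in the other sets, and 49.8 and 55.6 in the remaining cells. *Cntnap2*, *Nfasc*, *Cadm1*, *Dner* and *Plppr5*, which encode adhesion or membrane proteins of neurons, and *Glrb*, a glycine receptor subunit, were between 18.1 and 48.4 CPM in ApcMin and between 12.2 and 37.1 in VApcMinL members. Of these *Dner* was higher in the remaining cells, at 66.4 and 38.1 CPM against 48.4 and 30.9 in members. The 6 glial markers summed to 5.60 and 5.02 CPM in members. *Foxp2*, a forkhead factor, was 137 and 157 CPM and at most 54.3 and 60.9 in the other sets.

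Further receptors and enzymes led as well. *Prlr*, the prolactin receptor, was 53.7 and 68.7 CPM in members and at most 18.4 and 21.3 in the other sets, and 23.7 and 32.9 in the remaining cells. *Ptgfr*, the prostaglandin F receptor, was 31.2 and 46.2 CPM, and *Il31ra*, a subunit of the interleukin 31 receptor, 12.6 and 18.6. *Hpgd*, which degrades prostaglandins, was 258 and 197 CPM, against 93.5 and 79.2 in set L. *Art4*, a GPI-anchored protein of the ADP-ribosyltransferase family, was 86.5 and 82.1 CPM and at most 28.2 and 19.1 in the other sets, and 15.2 and 23.6 in the remaining cells. *Prlr* was found in 39.1% and 41.8% of members, *Hpgd* in 80.0% and 71.6% and *Art4* in 57.8% and 50.9%, against at most 2.53% and 5.84% of B-type cells for any of them. The leading genes were chosen by their lead in these same members, so their levels in parts of the members are a description and no test. All 25 were above sets P, L and A in members that led by 1 gene in both libraries, 24 in those that led by 3 or more, and 24 and 23 in the tied cells outside the rule.

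**Figure D3:**
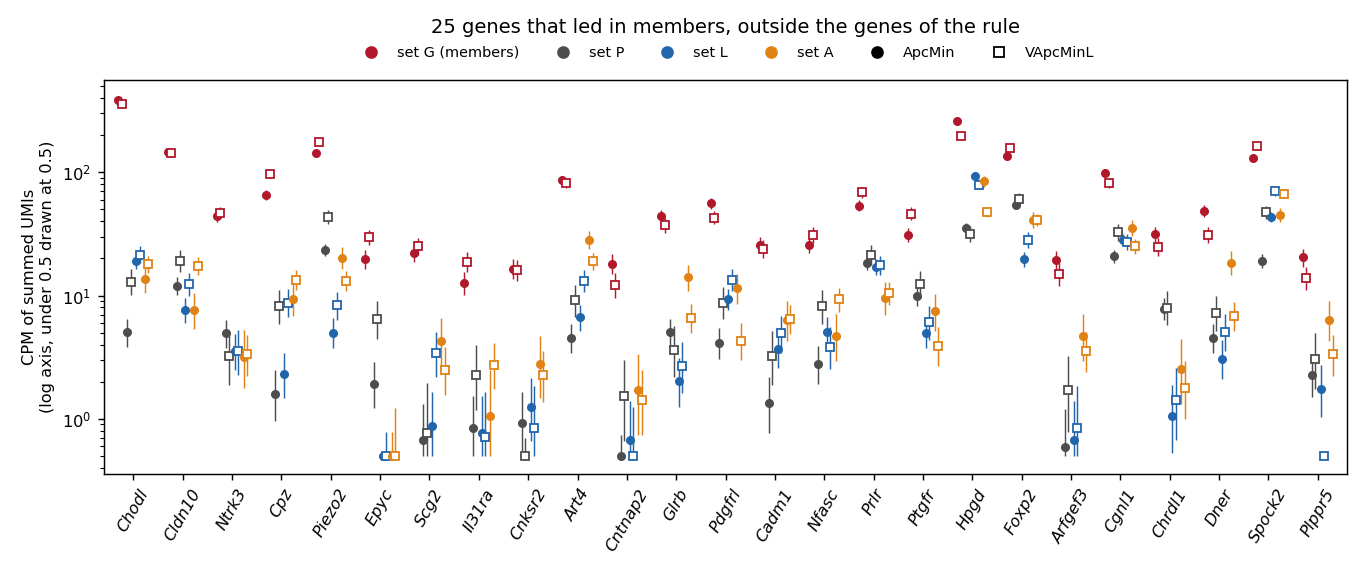
CPM of summed UMIs on a log axis for the 25 leading genes outside the rule, with members in red, set P in grey, set L in blue and set A in orange, ApcMin as filled circles, VApcMinL as open squares and exact Poisson intervals as bars, and levels under 0.5 CPM drawn at 0.5. The remaining cells are not drawn. *Chodl* stands at 385 and 355 CPM in members and at most 21.5 in sets P, L and A, while *Hpgd* stands at 258 and 197 CPM in members and up to 93.5 in set L.

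Not every leading gene was spread over the members. *Scg2*, a secretogranin, was 22.0 and 25.1 CPM, yet all of it came from 6 ApcMin and 11 VApcMinL members, which held 1367 and 1133 CPM. It was higher in the remaining cells, at 131 and 152 CPM. The members with *Scg2* had 947 and 870 CPM of *Chodl*, against 376 and 343 in the other members. *Epyc*, a small proteoglycan, was found in 32 and 38 members, and 10 of them held 67.9% and 61.2% of its UMIs. *Fibin*, a secreted protein chosen after its values were seen, reached at least 3 UMIs in 17 and 7 members. These had 601 and 1054 CPM of *Grem1*, against 2786 and 2739 in the others, 544 and 355 CPM of *Tnc*, a matrix protein, against 23.4 and 15.1, and 981 and 446 CPM of *Jam2*, an adhesion molecule, against 53.1 and 38.7. *Chodl* was 924 and 719 CPM in these *Fibin* members, against 361 and 349 in the others. A few cells of another composition thus met the rule in each library.

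The genes lowest in members against sets P, L and A included *Ackr3*, another atypical chemokine receptor, which takes up CXCL12. It was 35.5 and 28.0 CPM in members, 415 and 339 in set P, 69.4 and 47.4 in set L and 71.1 and 56.7 in set A, so set G and set P differed in opposite directions for *Ackr4* and *Ackr3*. *Vcan*, a large matrix proteoglycan, was 92.8 and 61.7 CPM in members and at least 271 and 177 in the other sets, and 235 and 222 in the remaining cells. *Gja1*, a gap junction protein, was 27.7 and 35.6 CPM in members and at least 102 and 111 in the other sets, and 92.4 and 103 in the remaining cells. *Gpc6*, *Thbd*, *Lama4* and *Ecm1* were also lowest in members. The 12 genes lowest by this ratio were all below the remaining cells as well.

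Of 18 measured collagens 6 were highest in set G fibroblasts, namely *Col1a1*, *Col1a2*, *Col3a1*, *Col5a2*, *Col14a1* and *Col8a1*, the last a gene of the rule. *Col4a1* and *Col15a1*, chains of basement membranes, were lowest. *Col1a1* was 6011 and 5662 CPM in members and at most 2927 and 2285 in the other sets. *Col14a1* was 1941 and 2096 CPM and at most 1319 and 1331 in the other sets, whereas *Col4a1* was 568 and 707 CPM against 2216 and 2010 in set L. The summed level of the 22 listed collagens was 30814 and 27865 CPM in members and at most 20603 and 17010 in the other sets. Of 25 other matrix genes 5 were highest in members, and *Fbln1*, a fibulin of elastic matrix, was 3151 and 2902 CPM against 2026 and 1098 in set A. *Vcan*, *Efemp1* and *Lamb1* were lowest.

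Of 9 measured complement genes 6 were highest in members. *C4b*, the fourth complement component, was 1746 and 2438 CPM against 1566 and 1807 in set A and 226 and 351 in set L. *C3*, the central component, was 3214 and 4446 CPM against 3088 and 3528 in set P. *Serping1*, *Cfb* and *C1ra*, which regulate or start the cascade, were also among the 6. Genes of both activation and restraint of complement were therefore highest in the same cells. *Igfbp7* was 3688 and 4185 CPM and *Mgp*, an inhibitor of calcification and of BMPs, 7716 and 10305 CPM in members.

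Genes induced by tissue dissociation were also counted. Of 19 measured, *Ier3*, *Hspa1a*, *Hspa1b*, *Dnajb1* and *Hsp90aa1* were highest in members. *Hspa1a* was 3045 and 3092 CPM in members and at most 1345 and 1593 in the other sets and 1108 and 1802 in the remaining cells, while *Fos*, at 3534 and 4859 CPM, was 4110 and 4301 in set L. The summed level of the 19 genes was 28228 and 35012 CPM in members. It was at most 27888 and 31099 in sets P and L, and 13992 and 17968 in set A. The part of these genes in the other values was not tested. No posterior Hox gene was measured at 200 UMIs, and the 15 summed to 1.29 and 1.46 CPM in members.

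Members differed among themselves along the other gene sets. The next set after G was P in 154 ApcMin and 164 VApcMinL members, L in 61 and 65 and A in 84 and 103, and other sets tied in 182 and 185. Members that leaned to set A had 3111 and 3143 CPM of *Grem1*, against 2608 and 2314 in those that leaned to set P. *Ackr4* went the other way, at 459 and 531 against 612 and 671 CPM. *Dkk2* was 424 and 433 CPM in set A-leaning members and 148 and 181 in set P-leaning members, ratios of 2.80 and 2.36 after 5 CPM were added. *Chodl* was 549 and 492 against 271 and 201 CPM and *Rspo3* 292 and 235 against 168 and 157. *Rgs5*, a regulator of G protein signals known from pericytes, was 545 and 627 against 247 and 183 CPM.

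Other genes were higher in the members that leaned to set P. *Igfbp6*, which binds IGF2, was 258 and 297 CPM in them and 110 and 122 in set A-leaning members. *Ly6c1* was 107 and 104 against 37.0 and 15.2 CPM, and *Hspb1* 421 and 334 against 182 and 95.6. The members that leaned to set L stood out by *Ptn*, the growth factor pleiotrophin, at 701 and 442 CPM, against 85.5 and 113 in set P-leaning and 4.02 and 22.8 in set A-leaning members. The genes of the sets chose these groups, so each group's likeness to its set is a description.

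**Figure D4:**
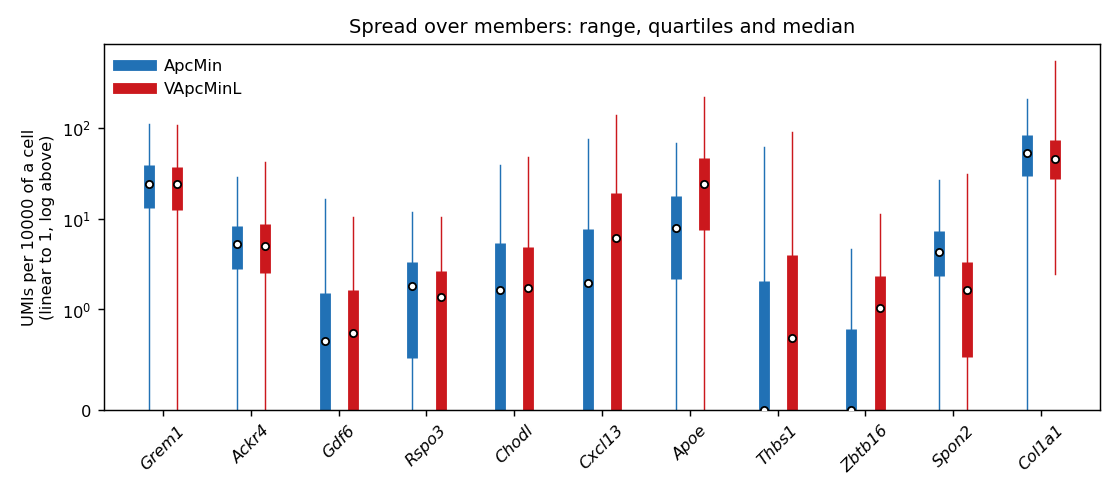
UMIs per 10000 of a cell over the members of each library, ApcMin in blue and VApcMinL in red, with the median as a circle, the middle quartiles as a thick bar and the range as a thin line, on an axis that is linear to 1 and logarithmic above. The *Grem1* medians are 23.9 and 24.1, the *Apoe* medians 7.998 and 24.2, and the *Spon2* medians 4.29 and 1.66.

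Between the libraries, most genes of set G fibroblasts had like levels. Of 6862 genes, 38 were at least 2-fold higher in VApcMinL members (0.554%) and 29 at least 2-fold lower (0.423%), with a median log2 ratio of -0.06 and a median absolute log2 ratio of 0.18. After TMM scaling, or centring on the median ratio, 50 were higher and 22 lower, so the balance of directions depended on the scaling. Of the counted genes 19 higher and 19 lower ones were not eligible for naming, among them hemoglobin genes on the lower side and epithelial genes such as *Fabp1* on the higher side. None of the 6 set G genes passed 2-fold in either direction. *Grem1* had a ratio of 1.01 (0.986 to 1.03), *Ackr4* 1.05 (1.01 to 1.10), *Col8a1* 0.947 (0.880 to 1.02), *Gdf6* 1.14 (1.03 to 1.28) and *Stc2* 0.765 (0.722 to 0.810).

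Of 16 measured chemokines, cytokines and decoy receptors 4 were at least 2-fold higher in VApcMinL members and 0 lower, with a median ratio of 1.33 over the list and 0.957 over all genes. *Cxcl13*, which attracts B cells through CXCR5, was 566 CPM (3938 UMIs) in ApcMin and 1415 CPM (8735 UMIs) in VApcMinL members, a ratio of 2.50 (2.41 to 2.60). It was found in 67.6% and 72.0% of members, with a median of 1.95 and 6.08 and a maximum of 76.6 and 139 UMIs per 10000. The members' values overlapped between the libraries. After thinning 48.4% and 61.5% of members had a UMI of it, and 0.281% and 2.70% of B-type cells. In the other sets it was 284 and 2068 CPM in set A, 2.60 and 47.6 in set L and 25.3 and 36.9 in set P, and 23.2 and 136 in empty droplets.

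*Ccl2*, which attracts monocytes, was 165 and 376 CPM in members, a ratio of 2.28 (2.12 to 2.45), and *Ccl7*, its neighbour on chromosome 11, 54.4 and 150 CPM, a ratio of 2.75 (2.44 to 3.11). A few cells held a large part of their UMIs. The 10 members with the most UMIs held 53.0% and 45.5% of *Ccl2* and 63.6% and 58.7% of *Ccl7*, and *Ccl2* was found in 21.4% and 29.0% of members, and in 3.94% and 5.62% of B-type cells. Without the 10 members of each library with the most UMIs of the gene the ratios were 2.65 and 3.12. In cells chosen without *Gdf6* the *Ccl2* ratio was 1.51. *Tslp* was 17.96 and 36.6 CPM, a ratio of 2.04 (1.63 to 2.56).

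*Apoe*, which encodes apolipoprotein E, was 1197 CPM (8333 UMIs) and 3252 CPM (20070 UMIs) in members, a ratio of 2.72 (2.65 to 2.79). It was spread over the cells. It was found in 89.6% and 94.8% of members, with medians of 7.998 and 24.2 UMIs per 10000, and 10 members held 11.4% and 8.53% of its UMIs. The ratio was 3.91 in set P, 2.73 in set L and 2.49 in set A. Free RNA held it as well, at 878 and 1373 CPM in empty droplets, and 48.9% and 56.4% of B-type cells had a UMI of it after thinning, against 73.2% and 87.2% of members.

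*Zbtb16*, a zinc finger factor, was 46.8 and 141 CPM in members, a ratio of 3.003 (2.64 to 3.42), and was found in 44.1% and 67.9% of them (0.141% and 1.80% of B-type cells). The other sets had ratios of 1.62, 2.65 and 3.19 in sets P, L and A. *Thbs1*, a matrix protein that activates TGF-beta, was 213 and 493 CPM, a ratio of 2.31 (2.17 to 2.46), against 1.27, 1.42 and 1.62. *Adamts4*, which cleaves proteoglycans, was 37.4 and 84.2 CPM with a ratio of 2.26 (1.94 to 2.63). *Cirbp*, a cold-inducible RNA-binding protein, had a ratio of 2.20 (1.96 to 2.48) in members and between 1.98 and 2.37 in the other sets. *Ereg*, a ligand of the EGF receptor and a gene of set A, was 40.9 and 101 CPM in members, and 10 members held 54.4% and 60.0% of its UMIs. *Adamtsl2*, *Cish* and *Gt(ROSA)26Sor* had ratios of 2.85, 2.59 and 2.35.

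Lower in VApcMinL members was *Spon2*, a secreted spondin, at 538 CPM (3747 UMIs) in ApcMin and 262 CPM (1615 UMIs) in VApcMinL, a ratio of 0.486 (0.458 to 0.515). It was found in 92.9% and 75.2% of members and 2.39% and 2.25% of B-type cells, with member medians of 4.29 and 1.66 UMIs per 10000, and the ratio was 0.665, 0.536 and 0.365 in sets P, L and A. *Fbln7*, a fibulin, was 112 and 53.6 CPM, a ratio of 0.477 (0.418 to 0.544), against 0.649, 0.585 and 0.904. Of the 25 measured matrix genes outside collagens, *Thbs1* was past 2-fold higher and *Tnc* past 2-fold lower. *Tnc* was found in 47 and 39 members, and 10 members held 54.7% and 57.5% of its UMIs. *Nme2*, a nucleoside diphosphate kinase that shares sequence with *Nme1*, was 26.9 and 8.10 CPM with a ratio of 0.302 (0.216 to 0.414), and between 0.356 and 0.383 in the other sets. *Jam2* was 92.8 and 45.2 CPM with a ratio of 0.487 (0.422 to 0.561), and 10 ApcMin members held 38.4% of its UMIs. The other named genes, *Gamt*, *Arsi*, *Amd2*, *Cdc42ep2*, *Tmem237*, *Il17d* and *Dcps*, had ratios from 0.433 to 0.513.

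**Figure D5:**
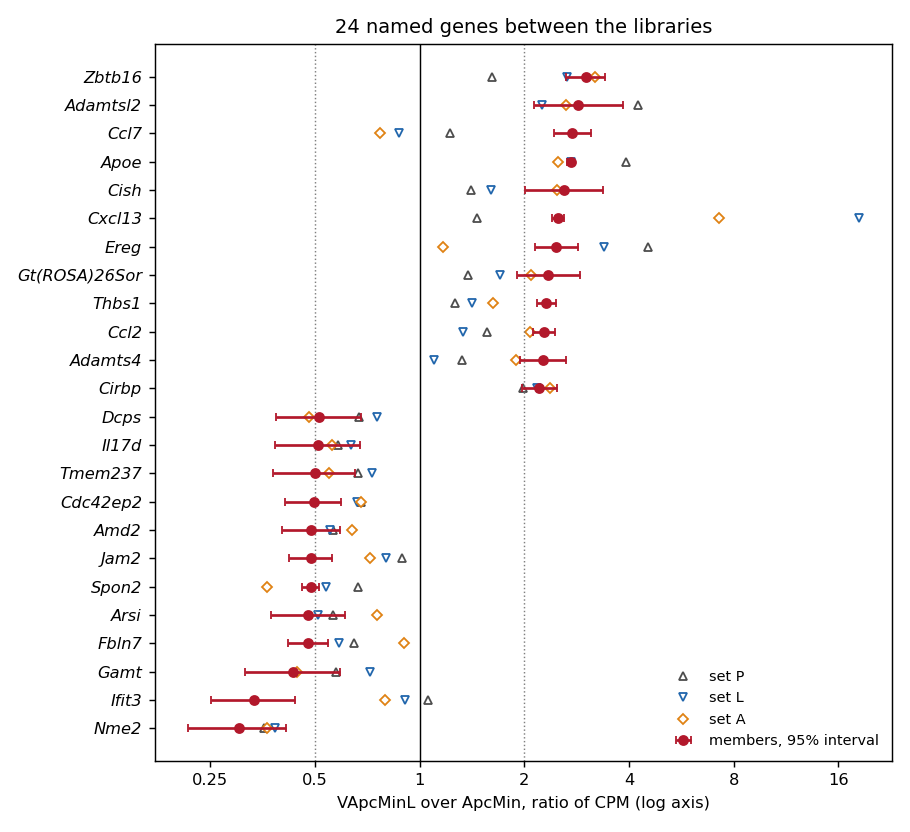
VApcMinL over ApcMin ratio of CPM on a log axis for the 12 highest and 12 lowest named genes in members (red circles, exact 95% intervals), with the ratios in set P, set L and set A as open symbols and dotted lines at 2 and 0.5. *Cirbp* is between 1.98 and 2.37 and *Nme2* between 0.302 and 0.383 in the 4 sets, while *Cxcl13* runs from 1.46 in set P to 18.3 in set L and *Ccl7* is 2.75 in members and 0.871 in set L.

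Of 15 measured interferon-induced genes 3 were past 2-fold lower, *Ifit1*, *Ifit3* and *Rsad2*, against 29 of all 6862 genes (0.423%). The median ratio over the list was 0.772. *Rsad2* was 34.2 CPM in ApcMin members and 37.6 in ApcMin empty droplets, and 10 ApcMin members held 81.5% of its UMIs. *Ifit1* was 24.9 CPM in ApcMin members and 17.7 in those empty droplets. *Ifit3* was 33.5 and 11.2 CPM, a ratio of 0.334 (0.251 to 0.439). It was found in 11.4% and 7.54% of members and 1.13% and 1.57% of B-type cells. After thinning it was found in 3.12% and 1.55% of members and 0.703% and 0.674% of B-type cells. The 10 members with the most UMIs held 77.3% and 58.0% of them. Without the 10 members of each library with the most UMIs the *Ifit3* ratio was 0.616, so the size of this difference rested on a few cells. Dissociation genes had a median ratio of 1.32, with 0 of 19 past 2-fold, and *Fosb* was 1222 and 1955 CPM. No collagen, of 18 measured, and no complement gene, of 9, was past 2-fold. The median ratio was 0.898 over collagens and 1.08 over complement genes. *Rspo3* had a ratio of 0.814 (0.752 to 0.881), and the ratio was 0.689, 0.763 and 0.734 in sets P, L and A.

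The lists of other cell types give the transcripts that do not belong to fibroblasts. The 7 T cell and ILC markers summed to 2.01 and 1.46 CPM, the 7 blood endothelial markers to 8.76 and 14.9 with *Pecam1* at 0 by the rule, the 7 myeloid markers to 28.6 and 39.9 and the 5 mesothelial markers to 21.3 and 8.26. The 11 epithelial markers summed to 16.1 CPM in ApcMin and 103 in VApcMinL members and to 468 and 5957 in empty droplets, with *Epcam* at 0 by the rule. Pericyte markers summed to 432 and 435 CPM, mostly from *Rgs5* at 357 and 354, which was 816 and 658 in set A. The 5 erythroid markers summed to 19206 and 821 CPM. In ApcMin 20 members, and in VApcMinL 3, had over 1% hemoglobin UMIs, up to 47.5% and 12.04%, and they held 95.9% and 64.8% of the members' hemoglobin UMIs. Without them 32 genes were at least 2-fold higher and 27 lower. The 7 B and plasma cell markers summed to 870 and 886 CPM. Free RNA was estimated at 3.82% and 3.08% of the members' UMIs, and its part in the differences was not tested. The libraries shared 18 barcodes among all cells and 0 among members.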

How the data were processed

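Sorted stromal cells of each genotype gave 1 scRNA-seq library by 10x Chromium chemistry. The authors aligned the reads to the mouse genome with Cell Ranger and deposited raw counts, whole UMI counts per gene for every barcode, empty droplets included. The deposited file headers name release 3.1.0 and the methods name 2.1.1. No normalization or cell filter is in the files. The libraries hold 93203061 and 101609269 UMIs over 31053 genes, of which 30934 matched GENCODE vM21 for positions.

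The members and gene lists were chosen with earlier results of these data known. UMIs were summed over the members of a library and divided by their total (CPM). Levels have exact Poisson intervals, shares exact Clopper-Pearson intervals and ratios exact conditional binomial intervals at 95%, which cover counting error only. A gene was measured where the members of both libraries together held at least 200 UMIs. Called genes had a ratio of at least 2 or at most 0.5. Named between libraries were the 12 largest and 12 smallest ratios among genes found in at least 10% of the members of the higher library and at least 2 times the level of its empty droplets (barcodes of ranks 45000 to 90000). Leading genes were the 25 with the largest ratio to the highest other group after 5 CPM were added. Mitochondrial, hemoglobin, immunoglobulin, Gm- and Rik-named genes and genes that mark sex were not named. List genes with the highest levels in members were named as examples, and further list genes were chosen after their values were seen. Doublets were kept. Scrublet scores (scanpy 1.11.5) marked 36 ApcMin and 15 VApcMinL members, 7.48% and 2.90%, and leaving them out was an alternative. Each member count was also made with set genes left out, after thinning to 3000 UMIs, and with other limits or scalings, including edgeR 4.0.16 TMM. The ratio calculation was tested on simulated data. Scripts ran under R 4.3.3 and Python 3.11.15 (pandas 2.3.3, scipy 1.17.1, numpy 2.4.6). Some members of the gene lists are counted in their list but not reported here by name.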

Additional observations from a re-analysis of the deposited data

Results flagged for a closer look

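The 6 set G genes, the 24 genes named between the libraries, the 25 leading genes and the list genes past 2-fold were searched for a VApcMinL to ApcMin ratio in members on the other side of 1 from that in set P, L or A, with both intervals of counting error clear of 1. The 12 genes found are given here, and over all 6862 measured genes 290 (4.23%) met the same condition. The named and leading genes had been chosen by values of these same data, so the 12 cannot be compared with that share. With 1 library per genotype none of these differences was tested. *Ccl7* had a ratio of 2.75 (2.44 to 3.11) in members and 0.871 (0.823 to 0.921) in set L. *Stc2* was 0.765 (0.722 to 0.810) in members and 1.81 (1.45 to 2.27) in set P. *Ackr4* was 1.05 (1.01 to 1.10) in members and 0.512 (0.403 to 0.650) in set A, although its member ratio was 0.997 when members were chosen after thinning. *Chodl* was 0.921 (0.870 to 0.975) in members and 2.57 (1.79 to 3.70) in set P.

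The next 6 are leading genes. *Piezo2* had a ratio of 1.21 (1.11 to 1.32) in members and 0.656 (0.494 to 0.871) in set A. *Cntnap2* was 0.671 (0.498 to 0.900) in members and 6.05 (1.45 to 35.4) in set P. *Pdgfrl* was 0.761 (0.649 to 0.892) in members, 2.13 (1.39 to 3.25) in set P and 1.44 (1.07 to 1.93) in set L. *Ptgfr* was 1.48 (1.24 to 1.78) in members and 0.529 (0.319 to 0.876) in set A. *Cgnl1* was 0.826 (0.735 to 0.928) in members and 1.56 (1.28 to 1.91) in set P. *Dner* was 0.639 (0.532 to 0.766) in members and 1.60 (1.03 to 2.46) in set P. *Tnc*, a matrix gene past 2-fold lower, was 0.450 (0.364 to 0.555) in members, 1.85 (1.41 to 2.41) in set P and 1.70 (1.33 to 2.18) in set L. It was found in 47 and 39 members, and 10 members held 54.7% and 57.5% of its UMIs. Members with at least 3 *Fibin* UMIs had 544 and 355 CPM of *Tnc*. The other members had 23.4 and 15.1 CPM, so *Tnc* was lower in VApcMinL in both parts. The part of few cells in the size of its member ratio was not tested. *Ctrb1*, which encodes a pancreatic digestive enzyme, was 0.476 (0.367 to 0.612) in members, 4.41 (3.91 to 4.98) in set L and 41.2 (33.6 to 51.1) in set A. Its level was 30.3 and 14.4 CPM in members and 1365 and 598 in empty droplets, and the part of free RNA was not tested.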

How the results depend on the processing

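No paired analysis was possible because there is 1 library for either genotype. The ratio of member shares ranged from 1.08 to 1.18 over the alternatives. Its interval excluded 1 after thinning to 3000 UMIs (1.17) and with *Stc2* (1.18), *Ackr4* (1.16) or *Col8a1* (1.16) left out of set G, settings that for single genes other than *Grem1* were added after seeing the data. The number of genes at least 2-fold lower in VApcMinL members, 29 as reported, was 18 after thinning, 15 with *Grem1* left out, 18 with *Ackr4* left out and 19 with *Col8a1* left out. In these settings fewer genes had at least 200 UMIs, and the cause was otherwise not tested. With a minimum of 50 UMIs per gene 135 were higher and 110 lower of 10604. Of 600 values of 30 named genes under 20 alternatives, 531 moved by no more than counting error and 68 moved further. In 1 value a gene whose reported interval excluded 1 changed direction. It was the *Ackr4* ratio, which was 1.05 and became 0.997 after thinning. For genes whose reported interval held 1, such as *Grem1*, a change of direction was not counted. Thinning also took the ratio of *Adamts4* from 2.26 to 1.45 and that of *Ereg* from 2.47 to 1.76, while leaving out *Serpina3n* raised the *Ereg* ratio to 3.41. Leaving out the members over 1% hemoglobin or the 10 members with the most UMIs of a gene was also added after seeing the data. No alternative gives the spread between mice, which 1 library per genotype does not hold.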
